A study of Mus musculus with 10 samples.

Results

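Collagens and the enzymes that cross-link and cut them were followed in the livers of mice without nucleomethylin and of wild-type mice. The genes were taken by symbol: every collagen alpha chain, matrix metalloproteinase (MMP), tissue inhibitor of metalloproteinases (TIMP) and lysyl oxidase that had an array probe set naming 1 gene only. This gave 74 of 19935 genes measured, namely 44 collagens, 22 MMPs, 4 TIMPs and 4 lysyl oxidases. Loxl2, which shares its probe set with another gene, and Mmp15 were not analysed here. The 10 livers came from 5 NML-KO mice, in which Rrp8, the gene of nucleomethylin, is knocked out, and from 5 wild-type (WT) mice, all 12 weeks old and with no treatment. Each liver had 1 array. The strain, the sex and the way the allele was made are unstated in the labels. The livers were also compared by their level of Dbp, a transcription factor gene under direct control of the circadian clock. Livers with a log2 Dbp signal above 8 (Dbp-high) were NML-KO 1, NML-KO 2, NML-KO 3, WT 1 and WT 2. The Dbp-low livers were NML-KO 4, NML-KO 5, WT 3, WT 4 and WT 5. This division was read from the arrays, no label of the study makes it, and the labels give no time of dissection.

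Collagens are triple helices of alpha chains. Fibrillar collagens give tissue its tensile strength, and network collagens form net-like sheets, such as those of type IV in basement membranes. Other classes decorate fibrils, anchor cells or span the cell membrane. Lysyl oxidases cross-link the secreted chains, MMPs cut them, and TIMPs bind and block the MMPs. In the healthy liver the matrix is sparse. Stellate cells and portal fibroblasts make most of the fibrillar collagen, and the matrix builds up when these cells are activated in fibrosis.

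Array signals are given as log2 of the deposited intensity, and each difference is the first-named group minus the second on that scale. Rrp8 lay between 6.65 and 7.19 in NML-KO livers and between 7.65 and 7.90 in WT livers, with no overlap (difference -0.88, SE 0.10, limma adjusted p = 0.109). Dbp, whose values chose the sets, averaged 9.84 ± 0.23 in Dbp-high livers and 6.42 ± 0.18 in Dbp-low livers (SD, n = 5 each). Arntl, a core clock gene, lay the other way, at 5.77 ± 0.14 in Dbp-high livers and 8.19 ± 0.09 in Dbp-low livers (SD, n = 5 each). Of 14 clock genes other than Dbp, 9 were higher and 4 lower in Dbp-high livers at an adjusted p of 0.05. The first principal component of all genes, centred within genotype, divided the livers into the same sets. Hepatocyte markers averaged 6.88 to 7.09 above the mean of all genes in every liver. The titles name separate livers, and nothing more is stated on litters or cages. In whole liver, fewer cells of a type and less RNA per cell cannot be told apart.

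The matrix genes spread over the range of array signals. Of the 74 genes, 42 (56.8%) lay at or below the median signal of all genes, against 50% of all genes by definition. Fewer of them, 11 (14.9%), lay at or below the lower quartile, against 25%. The brightest was Col18a1, at percentile 92.9 of all genes, followed by Mmp19 at 89.3, Col14a1 at 86.7 and Timp3 at 81.5. Signals of different probe sets do not rank transcripts, so these percentiles describe only how bright each probe set was. The genes varied from liver to liver about as much as all genes did. A range above 0.5 was seen for 30 of the 74, against 47.7% of all genes. The median range over the 10 livers was 0.45, against 0.49 over all genes, and a range above 1.0 was seen for Loxl4, Timp3 and Col27a1 alone (9.19% of all genes).

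Both extremes of the collagens fell in livers of the same genotype and Dbp set. NML-KO 2 had the highest value of 33 of the 74 genes (44.6%, against 17.2% of all genes), including 28 of the 44 collagens. NML-KO 3 had the lowest value of 23 genes (31.1%, against 10.7% of all genes), including 17 collagens. Of the 10 arrays, that of NML-KO 2 also had the highest median intensity over all probe sets (66.7) and that of NML-KO 3 the lowest (62.5). The part of this array-wide brightness in the collagen values was not tested. WT 2 stood apart in adipose markers, whose mean above that of all genes was 1.72 there and 0.26 to 0.58 in the other 9 livers.

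**Figure D1:**
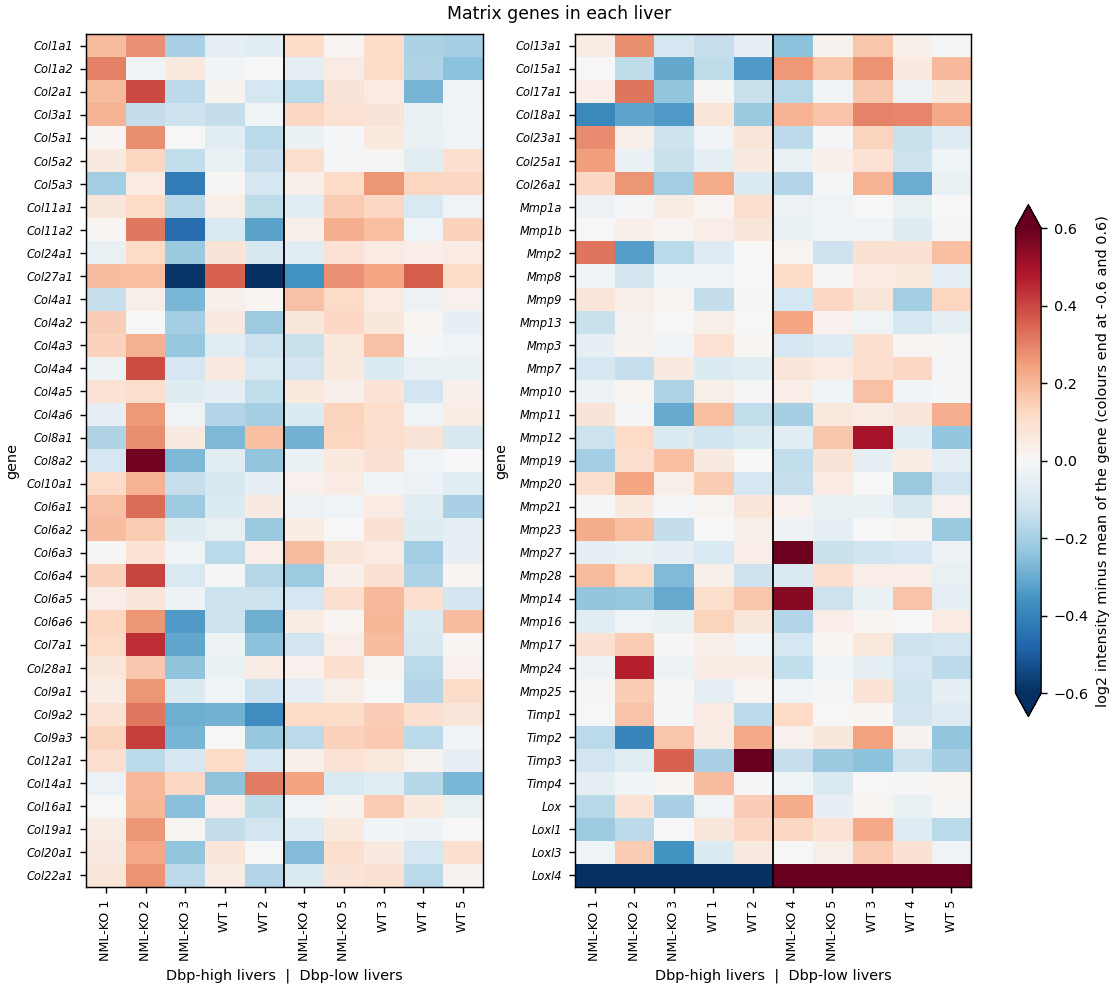
Each cell shows the log2 intensity of a matrix gene in a liver minus the mean of that gene over the 10 livers, with Dbp-high livers left of the black line and Dbp-low livers right of it. Loxl4 divides the livers completely, NML-KO 2 is the warmest column for the collagens (highest for 28 of 44), and NML-KO 3 is cool (lowest for 17 of 44).

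NML-KO and WT livers were compared to ask which matrix genes differ when nucleomethylin is missing. None of the 74 genes passed an adjusted p of 0.05, and 0% of all genes did (limma without the Dbp set in the model, adjusted over all 19935 genes). None reached an unadjusted p of 0.05 in this fit, which 2.7% of all genes did. For none of them were the 5 NML-KO livers all above or all below the 5 WT livers (0.406% of all genes). Differences were small: the median size was 0.07, and 44 of 74 lay above 0 (59.5%, against 46.6% of all genes). Without NML-KO 2 the number above 0 was 37, without NML-KO 3 it was 55 and without WT 2 it was 41. The 95% confidence interval stayed within 1.5-fold in either direction for 71 genes, all but Col18a1, Col27a1 and Loxl4, and within 1.2-fold for 38. Dim probe sets are among these, with 42 of the 74 at or below the median signal. Any background left in their values would shrink the differences, so these intervals bound the array signal and not the transcript.

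Col1a1 and Col1a2 encode the chains of type I collagen, the main fibrillar collagen of scar tissue. Col1a1 stood at 7.45, 7.54, 7.07, 7.37 and 7.28 in NML-KO livers 1 to 5, and at 7.21, 7.20, 7.37, 7.07 and 7.06 in WT livers 1 to 5. The groups overlapped, with NML-KO 3 at the level of the lowest WT livers and WT 3 at the level of NML-KO 4. The difference was 0.16 (SE 0.09, adjusted p = 0.9995). Col1a2 differed by 0.13 (SE 0.09), with NML-KO 1 alone above the highest WT liver. Col3a1, the chain of type III collagen, averaged 7.01 ± 0.16 in NML-KO livers and 6.95 ± 0.08 in WT livers (SD, n = 5 each). Of the 11 fibrillar collagens 8 lay above 0, and they ranged from -0.17 for Col5a3 to 0.16 for Col1a1.

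Type IV collagen is the scaffold of basement membranes. Col4a1 averaged 6.96 ± 0.18 in NML-KO livers and 6.99 ± 0.03 in WT livers, and Col4a2 averaged 6.88 ± 0.14 in NML-KO livers and 6.83 ± 0.12 in WT livers (SD, n = 5 each). The 9 network collagens lay between -0.03 and 0.10.

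The chains of type VI collagen form beaded filaments around cells, and none of them passed the test. Col6a3 stood at 6.65, 6.73, 6.62, 6.84 and 6.72 in NML-KO livers 1 to 5, against 6.49, 6.68, 6.69, 6.43 and 6.60 in WT livers 1 to 5. Its difference of 0.13 (SE 0.07, adjusted p = 0.9995) was the second smallest of the 74 by p, and the groups overlapped between 6.62 and 6.69. Col6a2 differed by 0.12 (SE 0.07) and Col6a1 by 0.09. All 8 beaded-filament and anchoring collagens lay above 0, from 0.03 for Col6a5 to 0.13 for Col6a3, and 6 of 8 did so without NML-KO 2 and again without WT 2. Their median was 0.19 within Dbp-high livers, where NML-KO 2 is found, and -0.02 within Dbp-low livers. Among fibril-associated collagens, Col14a1, which binds to the surface of type I fibrils, had the highest difference of all 74 genes, 0.18 (SE 0.12), which was 0.28 without WT 2. Col19a1 differed by 0.12 (SE 0.07), and by 0.07 without NML-KO 2.

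The median over all 74 genes was 0.03, against -0.01 over all genes. It was 0.07 within Dbp-high livers and 0.01 within Dbp-low livers, and -0.000962 without NML-KO 2.

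Col18a1, the chain of type XVIII collagen in basement membranes and the source of the fragment endostatin, had the lowest difference of the collagens. It stood at 9.18, 9.25, 9.23, 9.77 and 9.74 in NML-KO livers 1 to 5, against 9.64, 9.34, 9.86, 9.86 and 9.79 in WT livers 1 to 5. The groups overlapped, since NML-KO 4 and NML-KO 5 lay above WT 1 and WT 2. The difference was -0.26 (SE 0.15) without and -0.18 (SE 0.07, adjusted p = 0.992) with the Dbp set in the model. It was -0.27 within Dbp-high livers and -0.08 within Dbp-low livers.

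No protease or inhibitor passed the test. Mmp2, a gelatinase made by stellate cells, averaged 6.99 ± 0.24 in NML-KO livers and 7.10 ± 0.10 in WT livers (SD, n = 5 each). Its difference of -0.11 was -0.04 without NML-KO 2. Mmp8 and Mmp13, collagenases, and Mmp9, the other gelatinase, differed by -0.01, 0.06 and 0.06. Mmp14, a membrane-anchored MMP that cuts collagen and activates the Mmp2 protein, stood at 7.25, 7.26, 7.19, 8.04 and 7.36 in NML-KO livers 1 to 5, against 7.59, 7.65, 7.45, 7.66 and 7.43 in WT livers 1 to 5. NML-KO 1, NML-KO 2, NML-KO 3 and NML-KO 5 lay below every WT liver, and NML-KO 4 above all of them. The difference was -0.14 (SE 0.15), and it was -0.29 without NML-KO 4. Mmp16, another membrane-anchored MMP, had the smallest p of the 74 genes, with a difference of -0.11 (SE 0.05, adjusted p = 0.9995). Mmp3, a stromelysin that cuts many matrix proteins, differed by -0.09 (SE 0.05). Both probe sets were dim, at signal percentiles 21.2 and 12.1. Mmp19, the brightest MMP, averaged 9.02 ± 0.17 in NML-KO livers and 9.01 ± 0.05 in WT livers (SD, n = 5 each).

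Timp1, which is induced in many injured tissues, stood at 4.82, 4.99, 4.81, 4.94 and 4.82 in NML-KO livers 1 to 5, and at 4.87, 4.66, 4.83, 4.71 and 4.75 in WT livers 1 to 5. WT 1 and WT 3 lay inside the NML-KO range, and the difference was 0.11 (SE 0.06). Timp2, Timp3 and Timp4 differed by -0.12, -0.08 and -0.07. Timp2 was at -0.04 without NML-KO 2, and Timp3 turned to 0.15 without WT 2. The 4 lysyl oxidases all lay below 0, with Lox at -0.04, Loxl1 at -0.07, Loxl3 at -0.08 and Loxl4 at -0.42, while without NML-KO 3 only 2 of the 4 did. For Loxl4 the interval was wide, from -1.86 to 1.01, and with the Dbp set in the model its difference was -0.01 (SE 0.13).

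**Figure D2:**
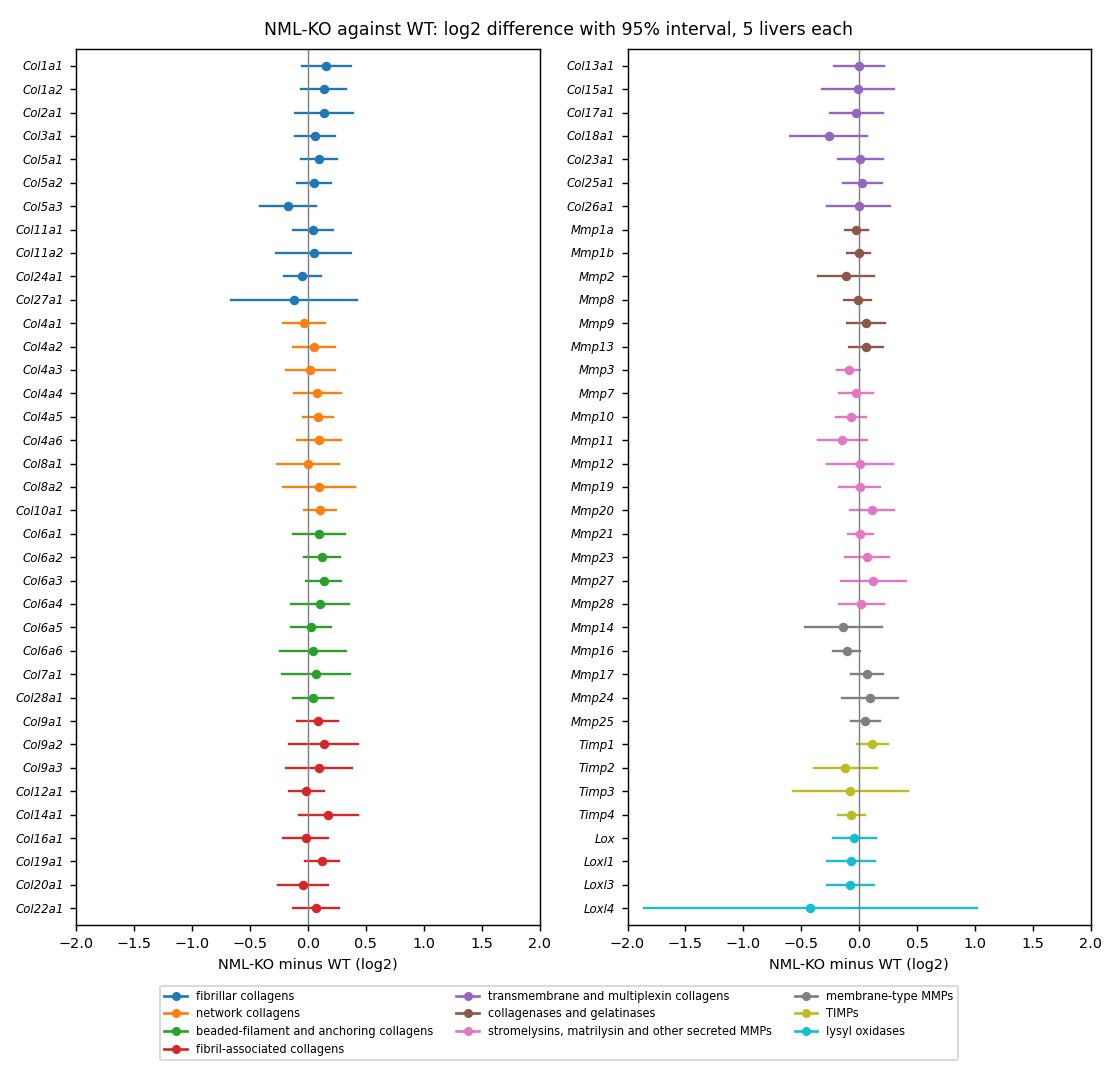
Points show the NML-KO minus WT difference (log2) of each of the 74 genes with its 95% confidence interval from limma, coloured by role, for 5 livers per genotype. Every interval crosses 0, and that of Loxl4 is the widest.

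Genes that fold, modify and bind collagen were read from the same fit. Over 6 lists (collagen folding and processing, matrix glycoproteins and proteoglycans, basement membrane partners of type IV collagen, TGF-beta signalling and targets, collagen receptors, and other regulators of matrix breakdown), with 25, 26, 15, 24, 15 and 23 genes measured, none passed an adjusted p of 0.05 between genotypes. P4ha1, the catalytic subunit of the prolyl hydroxylase that stabilises the collagen helix, differed by 0.38 (SE 0.15), and P4hb, its other subunit, by 0.12 (SE 0.06). Postn, a matrix protein of remodelling tissue, differed by 0.33 (SE 0.14), by 0.05 within Dbp-high livers and by 0.62 within Dbp-low livers. Mgp, an inhibitor of calcification, differed by -0.17 (SE 0.10). Hspg2, the basement membrane proteoglycan perlecan, differed by -0.18 (SE 0.05), and Lama1, a laminin chain, by 0.18 (SE 0.07). Of the 15 genes of their list, 13 lay below 0 and 2 above (13.3%, against 46.6% of all genes). Ctsk, a lysosomal protease that degrades collagen, differed by 0.44 (SE 0.16), and Adamts1, a secreted protease that cuts proteoglycans, by -0.19 (SE 0.13). The adjusted p of each of these 8 was 0.9995. The smallest-p genes of the other lists were Bmp7, a TGF-beta family ligand, at 0.25, Pmepa1, an inhibitor of TGF-beta signalling, at -0.29, and the collagen receptor subunits Itga2 at -0.18 and Itgb1 at 0.15. Of the clock genes, Per1 differed by 0.72 (SE 0.60) and Nfil3 by -0.51 (SE 0.53).

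Markers of the cells that make matrix were read beside these values. None of 16 stellate cell markers and none of 10 markers of activated myofibroblasts and smooth muscle passed the test between genotypes. The mean of the stellate markers above that of all genes lay between 0.63 and 1.04 in NML-KO livers and between 0.65 and 1.01 in WT livers. Myofibroblast and smooth muscle markers lay between -0.68 and -0.41 in NML-KO livers and between -0.65 and -0.41 in WT livers. For portal fibroblast and mesothelial markers, of which none of 14 passed, the ranges were -0.44 to -0.38 in NML-KO livers and -0.59 to -0.29 in WT livers.

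Dbp-high livers were compared with Dbp-low livers, with genotype in the model, to ask which matrix genes follow the division seen in the clock genes. Loxl4, Col18a1 and Col15a1 were lower in Dbp-high livers, and no matrix gene was higher. These are 3 of 74 genes (4.05%), while 12.9% of all genes passed the adjusted p of 0.05. By direction, 7.99% of all genes were lower and 4.92% were higher. At an unadjusted p of 0.05, 6 matrix genes (8.11%) passed, all lower, against 26.9% of all genes in either direction and 14.4% lower. Loxl4 is a lysyl oxidase, and Col18a1 and Col15a1 are the multiplexins, basement membrane collagens whose last domains are cut off as endostatin and an endostatin-like fragment. The median over the 74 genes was -0.02, against 0.02 over all genes, and without NML-KO 3 it was 0.01. Leaving out NML-KO 2 raised the count of lower genes to 5 of 74, in a fit whose share of all genes is not given here.

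Loxl4 encodes a copper-dependent amine oxidase that cross-links collagen and elastin. Its signal was 6.10, 6.10, 5.87, 5.68 and 6.37 in Dbp-high livers NML-KO 1, NML-KO 2, NML-KO 3, WT 1 and WT 2. In Dbp-low livers NML-KO 4, NML-KO 5, WT 3, WT 4 and WT 5 it was 8.24, 7.95, 8.0, 8.33 and 7.99. The sets did not overlap, and the gap between them was wider than the range within either. The difference was -2.08 (SE 0.13, limma adjusted p = 2.9e-05), so that Dbp-high livers had 23.7% of the signal of Dbp-low livers (95% confidence interval 19.2% to 29.2%). It was -2.07 within NML-KO livers and -2.08 within WT livers. By size it ranked 33 of 19935 genes. A second Loxl4 probe set, dimmer and not used in the fit, averaged 5.03 ± 0.04 in Dbp-high livers and 6.59 ± 0.22 in Dbp-low livers (SD, n = 5 each), again with no overlap. The other lysyl oxidases differed little, with Lox at -0.06 (SE 0.09), Loxl1 at -0.07 (SE 0.09) and Loxl3 at -0.09 (SE 0.09), and intervals that ended at -0.25, -0.28 and -0.30 on the lower side.

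Col18a1 stood at 9.18, 9.25, 9.23, 9.64 and 9.34 in Dbp-high livers NML-KO 1, NML-KO 2, NML-KO 3, WT 1 and WT 2. In Dbp-low livers NML-KO 4, NML-KO 5, WT 3, WT 4 and WT 5 it stood at 9.77, 9.74, 9.86, 9.86 and 9.79. Every Dbp-high liver was below every Dbp-low liver, with WT 1 the nearest to them. The difference of -0.44 (SE 0.07, limma adjusted p = 0.0026) left 73.6% of the Dbp-low signal (95% confidence interval 66.3% to 81.7%). Col15a1 stood at 6.84, 6.68, 6.53, 6.68 and 6.5 in the same order of Dbp-high livers and at 7.10, 7.0, 7.10, 6.89 and 7.03 in that of Dbp-low livers. These sets did not overlap either, though NML-KO 1 and WT 4 were the nearest to each other. Col15a1 differed by -0.39 (SE 0.07, adjusted p = 0.00785), which left 76.2% of the Dbp-low signal (95% confidence interval 67.9% to 85.5%). With the livers of 1 genotype alone, Col18a1 within WT livers (-0.35, adjusted p = 0.121), Col15a1 within NML-KO livers (-0.37, 0.21) and Col15a1 within WT livers (-0.42, 0.0715) did not pass.

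**Figure D3:**
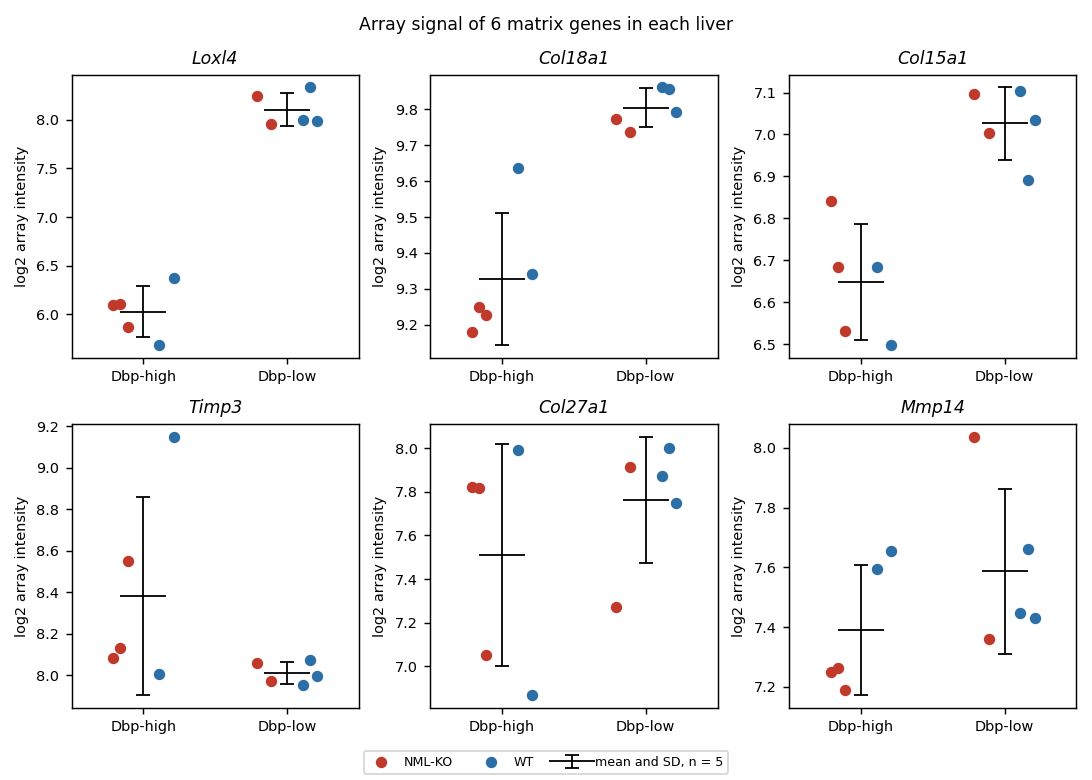
Points show the log2 intensity of 6 genes in each liver, NML-KO left of WT within each Dbp set, and bars show the mean and SD of the 5 livers. Loxl4, Col18a1 and Col15a1 separate the sets, while Timp3 is high in WT 2 and NML-KO 3, Col27a1 is low in WT 2, NML-KO 3 and NML-KO 4, and Mmp14 is high in NML-KO 4.

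The promoters of these 3 genes are shown because they are the members that moved with the clock genes. Each window runs from 250 bases before to 50 bases after a RefSeq transcription start (GRCm38.p6), 5′ to 3′ on the gene's strand, and capitals mark GC boxes (GGGCGG, or CCGCCC where it lies on the other strand). Loxl4 lies at chr19:42612757-42613056 on the minus strand. The first of 2 Col18a1 windows lies at chr10:77166481-77166780 on the minus strand, and Col15a1 at chr4:47207762-47208061 on the plus strand.
Loxl4: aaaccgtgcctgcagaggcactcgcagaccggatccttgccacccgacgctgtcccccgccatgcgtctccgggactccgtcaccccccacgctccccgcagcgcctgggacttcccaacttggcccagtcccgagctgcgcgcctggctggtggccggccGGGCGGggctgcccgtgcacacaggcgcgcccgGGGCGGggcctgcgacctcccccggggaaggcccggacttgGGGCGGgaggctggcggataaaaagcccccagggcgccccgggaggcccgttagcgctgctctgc
Col18a1: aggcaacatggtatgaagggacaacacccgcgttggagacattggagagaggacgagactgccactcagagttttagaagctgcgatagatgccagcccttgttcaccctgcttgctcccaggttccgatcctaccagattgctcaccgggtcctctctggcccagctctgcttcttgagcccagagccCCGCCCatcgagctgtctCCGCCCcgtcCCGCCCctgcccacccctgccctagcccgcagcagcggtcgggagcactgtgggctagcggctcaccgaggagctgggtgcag
Col15a1: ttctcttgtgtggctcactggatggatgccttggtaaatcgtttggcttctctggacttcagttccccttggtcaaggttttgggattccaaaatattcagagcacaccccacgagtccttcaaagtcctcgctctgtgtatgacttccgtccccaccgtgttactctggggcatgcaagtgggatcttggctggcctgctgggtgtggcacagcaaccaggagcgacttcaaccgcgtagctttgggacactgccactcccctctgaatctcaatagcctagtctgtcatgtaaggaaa

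The Loxl4 window is 75% G and C with 32 CpG dinucleotides, against medians of 52.7% and 7 over all 32851 windows. It holds 3 GC boxes, which start at -89, -56 and -15 from the transcription start. The Col18a1 window holds 3 on the other strand, and the second Col18a1 window and the Col15a1 window hold none. GC boxes were found in 35.7% of all windows. The 3 clock-related motifs searched on both strands were the E-box CACGTG (7.15% of all windows), the D-box TTATGTAA or TTACGTAA (1.06%) and the ROR element TAGGTCA (2.61%). None of these letters is in the windows of Loxl4, Col18a1 or Col15a1. Among the 57 matrix genes with a window, the E-box was found in Mmp7, the ROR element in Mmp10 and the D-box in none.

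None of the 11 fibrillar collagens passed the test between the Dbp sets. Col5a3, a chain of type V collagen, came nearest. It stood at 6.42, 6.67, 6.20, 6.63 and 6.52 in Dbp-high livers NML-KO 1, NML-KO 2, NML-KO 3, WT 1 and WT 2, and at 6.66, 6.74, 6.89, 6.75 and 6.75 in Dbp-low livers NML-KO 4, NML-KO 5, WT 3, WT 4 and WT 5. The sets overlapped only in that NML-KO 2 lay just above NML-KO 4. Its difference was -0.24 (SE 0.08, adjusted p = 0.0952), and without NML-KO 2 it passed (-0.30, 0.0255). Col1a1 averaged 7.29 ± 0.20 in Dbp-high livers and 7.23 ± 0.16 in Dbp-low livers (SD, n = 5 each). Col1a2, Col3a1, Col5a1 and Col5a2 differed by 0.11, -0.11, 0.00 and -0.07. Col27a1, a fibrillar collagen of cartilage, stood at 7.05 in NML-KO 3 and 6.87 in WT 2 but between 7.82 and 7.99 in the other Dbp-high livers. In the Dbp-low livers it was 7.27 in NML-KO 4 and between 7.75 and 8.0 in the others. Its difference of -0.24 (SE 0.24) was 0.03 without WT 2.

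Among the chains of type IV collagen, Col4a1 and Col4a2 did not pass. Col4a1 differed by -0.27 within NML-KO livers and by 0.01 within WT livers. Col4a1 averaged 6.91 ± 0.14 in Dbp-high livers and 7.04 ± 0.08 in Dbp-low livers, and Col4a2 averaged 6.81 ± 0.16 in Dbp-high livers and 6.90 ± 0.06 in Dbp-low livers (SD, n = 5 each). The differences were -0.13 (SE 0.08, interval -0.30 to 0.04) and -0.10 (SE 0.08, interval -0.28 to 0.07). The 2 genes lie head to head, and their start windows in RefSeq share 78 bases at chr8:11312777-11312854 (GRCm38.p6). These bases are printed on the strand of Col4a2 because they belong to both promoters. Motifs are not marked in this stretch, which holds the GC box letters GGGCGG.
Col4a1 and Col4a2: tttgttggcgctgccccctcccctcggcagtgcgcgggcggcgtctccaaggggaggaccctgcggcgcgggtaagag

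Of the 8 beaded-filament and anchoring collagens, 6 lay below 0, from -0.16 for Col6a6 to 0.09 for Col6a1. Col6a1, Col6a2 and Col6a3 differed by 0.09, -0.03 and -0.05. Col6a2 and Col6a1 are neighbours of Col18a1 on chromosome 10, with 2 protein-coding genes between Col6a1 and Col18a1, and of the 3 only Col18a1 passed. The fibril-associated collagen Col9a2 differed by -0.26 (SE 0.11, adjusted p = 0.185), by -0.43 within WT livers and by -0.08 within NML-KO livers; without NML-KO 2 it passed (-0.34, 0.032). Col14a1 differed by 0.11 (SE 0.12), and by -0.02 without WT 2. In the transmembrane and multiplexin class, the 5 genes other than Col15a1 and Col18a1 lay between 0.00 and 0.14.

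Among the proteases, Mmp1b, a mouse gene of the interstitial collagenase family, was the single member with all Dbp-high livers above all Dbp-low livers, so that 4 of 74 genes (5.41%) did not overlap between the sets, against 12.2% of all genes (5.04% higher and 7.12% lower). Its difference was 0.07 (SE 0.04, adjusted p = 0.324), and its probe set was dim, at percentile 2.4. Mmp7, matrilysin, an enzyme of epithelial cells, differed by -0.13 (SE 0.05, adjusted p = 0.138). Mmp20, the enamel protease, differed by 0.15 (SE 0.08), at percentile 25.1. Mmp2, Mmp8, Mmp9 and Mmp13 differed by -0.08, -0.07, -0.02 and -0.04, and Mmp19 by 0.05. Mmp14 differed by -0.18 (SE 0.15), and by 0.02 without NML-KO 4.

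Timp3, an inhibitor that binds to the matrix and also blocks ADAM proteases, was the brightest TIMP and the matrix gene with the highest difference between the sets. It stood at 8.08, 8.13, 8.55, 8.0 and 9.15 in Dbp-high livers NML-KO 1, NML-KO 2, NML-KO 3, WT 1 and WT 2. In Dbp-low livers NML-KO 4, NML-KO 5, WT 3, WT 4 and WT 5 it stood at 8.06, 7.97, 7.95, 8.07 and 8.0. WT 2 and NML-KO 3 were high and the other 8 livers lay between 7.95 and 8.13. The difference was 0.40 (SE 0.20, adjusted p = 0.223), and 0.15 without WT 2. WT 2 was also the liver with high adipose markers, none of whose 10 measured genes passed the test between the sets; their mean lay between 0.48 and 1.72 in Dbp-high livers and between 0.26 and 0.49 in Dbp-low livers. In NML-KO 3, the other liver with high Timp3, the mean of the adipose markers was 0.52. The part of these markers in the Timp3 values was not tested. Timp1, Timp2 and Timp4 differed by -0.00, -0.02 and 0.06.

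**Figure D4:**
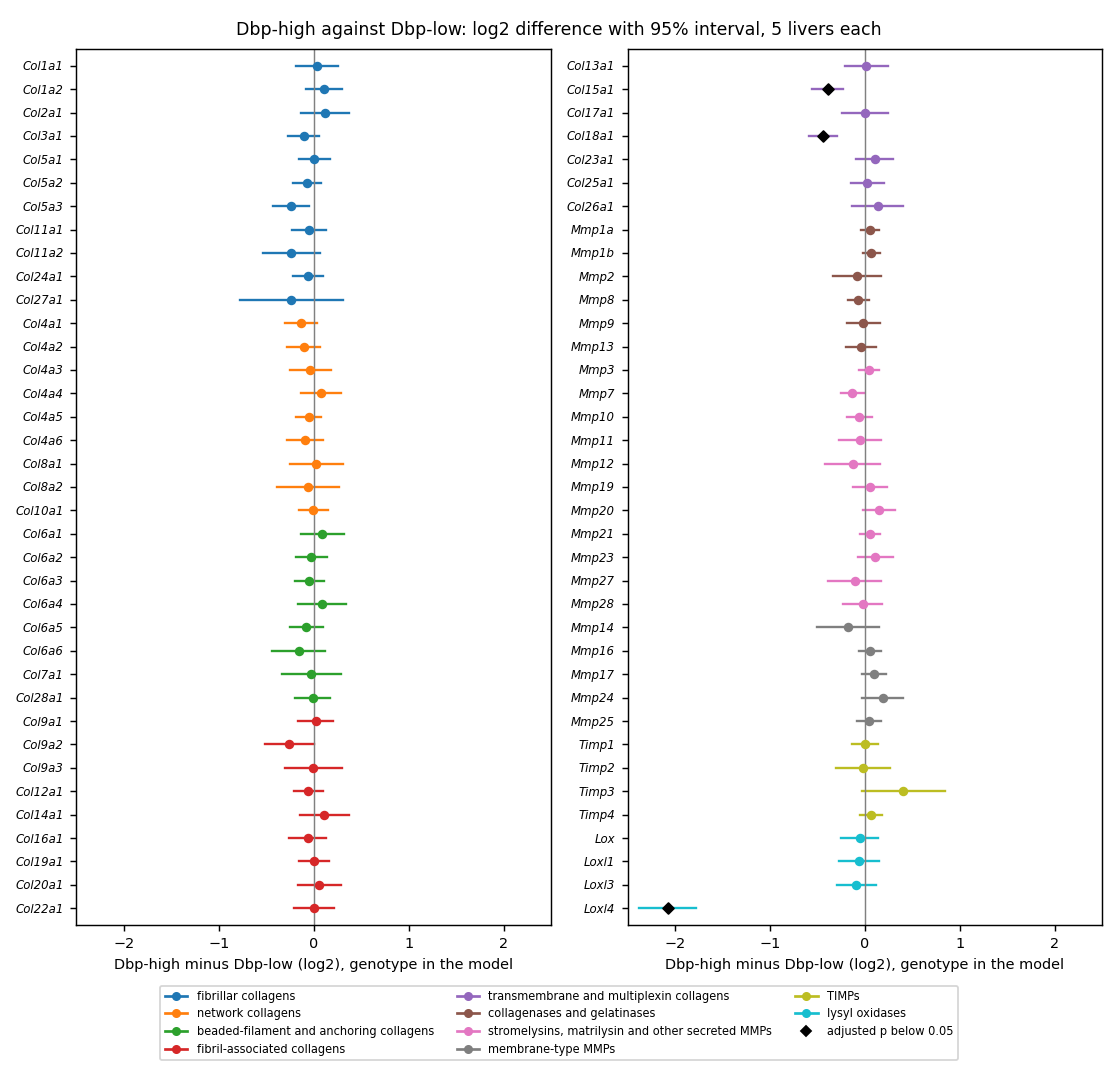
Points show the Dbp-high minus Dbp-low difference (log2) of each of the 74 genes with its 95% confidence interval from limma, genotype in the model, for 5 livers per set, coloured by role. Black diamonds mark the 3 genes past an adjusted p of 0.05 (Loxl4, Col18a1 and Col15a1), and apart from them the highest difference is that of Timp3.

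Apart from Loxl4, Col18a1 and Col15a1, the sizes of difference between the Dbp sets had a median of 0.06, against 0.10 over all genes. The interval stayed within 1.5-fold for 70 of the 74 genes, the exceptions being Loxl4, Col18a1, Col27a1 and Timp3. Here too dim probe sets are among the 70, and the intervals bound the array signal only.

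Several genes that process or bind collagen also passed the test between the Dbp sets. Of 25 genes of collagen folding and processing, 4 were lower and 1 was higher. Ppib, the prolyl isomerase cyclophilin B of the endoplasmic reticulum, was lower, at -0.81 (SE 0.07, adjusted p = 0.000143). Bmp1, the protease that trims the ends of procollagens, was lower, at -0.38 (SE 0.07, 0.00648). Plod3 and Plod1, lysyl hydroxylases, were lower, at -0.33 and -0.25 (adjusted p = 0.0301 and 0.0411). Mia3, which loads procollagen for export, was higher by 0.57 (SE 0.09, 0.0038). Of 15 basement membrane partners of type IV collagen, Nid2, the linker nidogen-2, was lower, at -0.75 (SE 0.08, adjusted p = 0.000379) and Lamb1, a laminin chain, higher by 0.21 (SE 0.05, 0.029).

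In the remaining lists 1 or 2 genes passed. Among 26 glycoproteins and proteoglycans this was Vtn, the plasma and matrix protein vitronectin, lower, at -0.32 (adjusted p = 0.0075). Mgp did not pass at 0.24 (0.0528). Among 24 genes of TGF-beta signalling, Tgif1, a repressor of the pathway, was lower, at -0.68 (0.0102) and Tgfbr3, the co-receptor betaglycan, higher by 0.24 (0.0357). Among 15 collagen receptors, the integrin chain Itgb5 was lower, at -0.32 (0.0084), and Mrc2, which takes up collagen fragments, stood at 0.18 (0.125). Among 23 other regulators of matrix breakdown, Bsg, a membrane glycoprotein known as an inducer of MMPs, was lower, at -0.77 (0.000104) and Adamts9, a secreted protease, higher by 0.39 (0.0122). Shares of called genes ran from 1 of 26 to 5 of 25 over the 6 lists, beside 12.9% of all genes.

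Cell type markers were read in the same fit, in which 12.9% of all genes passed. Of 12 markers of Kupffer cells and macrophages, 4 were lower in Dbp-high livers (C1qb -1.25, C1qc -1.02, Vsig4 -1.24 and Cd68 -0.71). Of the 12, 11 lay below 0 and 1 above (8.33%, against 57.5% of all genes), with a median of -0.62. At an unadjusted p of 0.05, 9 were lower, against 14.4% of all genes. The mean of the 12 above that of all genes lay between 0.99 and 1.85 in Dbp-high livers and between 1.67 and 2.40 in Dbp-low livers. Of 12 sinusoidal endothelial markers Gpr182 alone was lower (-0.73), and the list lay between 2.16 and 2.57 in Dbp-high livers and between 2.29 and 2.59 in Dbp-low livers. Of 8 cholangiocyte markers Sox9 alone passed and was lower (-1.13), while 6 of the 8 lay above 0, with a median of 0.06. The list, Sox9 included, ranged from -0.95 to -0.89 in Dbp-high livers and from -0.91 to -0.68 in Dbp-low livers. Of 16 stellate cell markers Bmp10 alone was higher (0.42), with ranges of 0.63 to 1.04 in Dbp-high livers and 0.82 to 0.94 in Dbp-low livers. Msln and Upk3b of 14 portal fibroblast and mesothelial markers were higher (0.45 and 0.50), with ranges of -0.46 to -0.29 in Dbp-high livers and -0.59 to -0.34 in Dbp-low livers. None of 10 myofibroblast and smooth muscle markers and none of 11 neutrophil markers passed. Cela3b alone of 9 pancreas markers was higher (0.43), with the list between -1.06 and -0.71 in Dbp-high livers and between -1.10 and -0.98 in Dbp-low livers. Alb and Cyp2e1 of 9 hepatocyte markers were higher (0.21 and 0.20) and G6pc was lower (-1.01). The part of these markers in the differences of Loxl4, Col18a1 and Col15a1 was not tested.

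Whether the NML-KO difference was the same in Dbp-high as in Dbp-low livers was tested by an interaction term, the NML-KO minus WT difference within Dbp-high livers less that within Dbp-low livers. No matrix gene passed an adjusted p of 0.05 (0% of all genes), and 1 of 74 (1.35%) reached an unadjusted p of 0.05, against 6.49% of all genes. That gene was Mmp14, at -0.39 within Dbp-high livers and 0.19 within Dbp-low livers, an interaction of -0.58 (SE 0.24, adjusted p = 0.765). Leaving out 1 liver at a time moved it between -0.91 and -0.24. Col4a1 followed at -0.28 (SE 0.13) and Mmp13 at -0.25 (SE 0.12). For Loxl4 the interaction was 0.00 (SE 0.28, interval -0.64 to 0.65).

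Of the MMP genes, 10 follow one another on chromosome 9 with no other protein-coding gene between them in RefSeq: Mmp13, Mmp12, Mmp1b, Mmp3, Mmp1a, Mmp10, Mmp8, Mmp27, Mmp20 and Mmp7. All 10 had dim probe sets, at signal percentiles 2.4 to 32.4. They differed by -0.09 to 0.12 between NML-KO and WT livers and by -0.13 to 0.15 between the Dbp sets. Mmp12 and Mmp27 had the widest ranges over the livers, 0.73 and 0.72, with Mmp12 at 5.54 in WT 3 and Mmp27 at 5.75 in NML-KO 4. The letters TATAAA lay in the start windows of 9 of the 10 on either strand, all but Mmp27, against 13.6% of all windows. They also lay in 1 of the 7 other MMP genes with a window. On the gene's own strand 8 of the 10 had them. The match of Mmp12 starts after the RefSeq start, at 4, and Mmp7 has a further match at -123. Stretches of 36 bases around TATAAA are shown for 6 of the 10 genes to set the shared letters side by side. They run 5′ to 3′ on the gene's strand, with TATAAA in capitals.
Mmp13: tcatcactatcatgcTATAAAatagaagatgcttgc
Mmp3: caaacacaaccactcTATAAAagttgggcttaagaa
Mmp1a: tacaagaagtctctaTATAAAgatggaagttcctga
Mmp10: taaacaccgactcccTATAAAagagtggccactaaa
Mmp20: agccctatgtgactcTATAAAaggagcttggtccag
Mmp7: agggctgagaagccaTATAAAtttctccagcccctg

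In these stretches TATAAA starts at -16 from the RefSeq start in Mmp13, -7 in Mmp3, -28 in Mmp1a, -29 in Mmp10, -58 in Mmp20 and -26 in Mmp7. They lie at chr9:7272483-7272518, chr9:7445800-7445835, chr9:7464098-7464133, chr9:7502298-7502333, chr9:7628158-7628193 and chr9:7692049-7692084 on the plus strand of GRCm38.p6, in that order of genes.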

How the data were processed

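Total RNA from 10 livers was measured on Affymetrix whole-transcript arrays, 1 array per liver. The authors deposited 1 table of linear intensity values for 28815 probe sets, from 18.4 to 29834. The submitters' processing notes name mouse build mm8, and the steps of background correction and normalization are not stated there or in the labels. Any background left in the values would shrink the differences of dim genes. Of the probe sets, 21780 name 1 gene in the platform table, 1605 several and 5430 are not named there. The brightest single-gene probe set stood for each of 19935 genes; Loxl4, Col6a5 and Col6a6 had a second one. Symbols were updated through gene IDs in a RefSeq table (GRCm38.p6), used for names and gene order. Promoter windows come from RefSeq on that build and cover 57 of the 74 genes.

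Values were taken to log2 with no filter. NML-KO was compared with WT, Dbp-high with Dbp-low livers (genotype in the model), and their interaction was fitted, with the lmFit and eBayes functions of limma 3.58.1 (R 4.3.3). P-values were adjusted by Benjamini-Hochberg over all genes, with a threshold of 0.05. The fits were run on simulated data to see whether differences put in came back. The simulated noise was independent between genes and arrays, so this cannot show how effects shared within a liver act. Precision is limited by the number of arrays, 5 per genotype. The closest pair of arrays differed by 0.165 (root mean square of log2 values), so none was deposited under 2 names. P-values measure only the spread between these livers.

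The members, gene lists, Dbp threshold and tests were chosen with earlier results of these data known. Genes named are Rrp8, Dbp and Arntl, the 8 members with the smallest p in each comparison, a list of common liver matrix genes, the 3 of the interaction with the smallest p, the 2 genes of each pathway list with the smallest p, and called genes of the pathway and marker lists. Col6a5, Col6a6, Mmp12, Mmp1b, Mmp27, Loxl3 and the members of the chromosome 9 cluster were named after their values were seen.

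Alternatives were array weights, quantile normalization, a trended and robust prior, centring on the array median, the mean of all probe sets, leaving out dim genes, an offset of 16 before log2, other thresholds, the Dbp set or genotype as a term, the replicate number as a block, fits within a set or genotype, sets by principal component, and each array left out in turn.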

Additional observations from a re-analysis of the deposited data

Results flagged for a closer look

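Within genotypes and within Dbp sets of 5 livers, 24 matrix genes were screened for a single liver far from the others by Dixon's criterion (gap over range above 0.71). Of 96 checks 7 stood out. Chance gives about 1 in 20 for a single check. The screened genes included members chosen for a small p in these data. Each liver also entered a check of its genotype and a check of its Dbp set. The checks were thus not independent, and the number that stood out was not tested against chance.

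Timp3 stood out in both genotypes. Among WT livers WT 2 was high at 9.15, with the others at 7.95 to 8.07. Among NML-KO livers NML-KO 3 was high at 8.55, with the others at 7.97 to 8.13. Col27a1 was low in WT 2 at 6.87, with the other WT livers at 7.75 to 8.0.

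Mmp14 was high in NML-KO 4 at 8.04, with the other NML-KO livers at 7.19 to 7.36. Mmp16 was low in the same liver at 4.80, with the other Dbp-low livers at 4.98 to 5.03. Among Dbp-high livers NML-KO 1 was high for Col1a2, at 7.51 with the others at 7.19 to 7.26, and low for Mmp13, at 4.87 with the others at 5.00 to 5.04.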

How the results depend on the processing

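No matrix gene passed between NML-KO and WT livers under any alternative run, and the count stayed at 0 (0 to 0) with each array left out. The median difference of the 74 genes between NML-KO and WT livers ranged from -0.000962 to 0.0649 with 1 array left out. Between the Dbp sets the count ran from 3 to 5 in the same way, in fits whose shares of all genes are not given here. The median between the Dbp sets ran from -0.0471 to 0.0137, and the interaction count from 0 to 0. The count between the Dbp sets was 6 at an unadjusted p of 0.05. With the replicate number as a block it was 0 (2 of all genes passed), the median was -0.282 and the adjusted p was 0.213 for Loxl4 (-2.13), 0.527 for Col18a1 (-0.463) and 0.347 for Col15a1 (-0.704). In that block only number 3 holds livers of both Dbp sets. Same-numbered livers correlated at 0.438, 0.264, -0.416, 0.348 and 0.537 in their deviations from the genotype means, and of the NML-KO livers number 1 alone correlated best with its own number. Not every pair correlated above 0.1 and the labels tie the numbers to nothing shared, so the block was kept as an alternative; numbers 1, 2, 4 and 5 each lie within 1 Dbp set, and whether numbered livers share a batch was not tested. The block also turned the sign of Mmp20 (-0.104), Col1a1 (-0.583) and Col1a2 (-0.234) between the Dbp sets. With each array left out, the adjusted p ranged from 2.9e-05 to 0.000208 for Loxl4, from 0.000474 to 0.0139 for Col18a1 and from 0.00527 to 0.0239 for Col15a1. Between NML-KO and WT, Col15a1 turned to 0.0109 with quantile normalization, 0.0678 with the Dbp set as a term, 0.0949 within Dbp-high and 0.0408 within Dbp-low livers, and ran from -0.0967 to 0.0647 with 1 array left out; Mmp14 turned to 0.185 within Dbp-low livers. Between the Dbp sets, within WT livers, Col4a1 was 0.01 and Mmp14 was 0.112. With 1 array left out, Col1a1 ran from -0.00973 to 0.0975, Col27a1 from -0.408 to 0.027 and Mmp14 from -0.254 to 0.0208. Array weights put Col5a3 past the threshold (-0.284, adjusted p = 0.0271), as did fits within WT livers for Col9a2 (-0.433, 0.0305). For the results that changed call or sign without the loss of livers, the cause was not tested. The interaction alternatives were chosen after seeing the data. Dim probe sets limit what can be seen: 42 of the 74 genes lay at or below the median signal.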
